A study of Caenorhabditis elegans with 12 samples.

Results

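The genes described here encode the neuropeptides and insulin-like peptides of the nematode Caenorhabditis elegans: the FMRFamide-like peptide genes (flp), the neuropeptide-like protein genes (nlp) and the insulin-like genes (ins), to which daf-28 was added. They are all rows of the mRNA table whose gene number maps to a symbol that starts with flp-, nlp- or ins-, together with daf-28. This gave 141 of 22191 rows, with 30 flp genes, 74 nlp genes and 37 ins genes. The annotation holds 149 such symbols, and the other 8 were not analysed here. The 2 strains were sampled as whole worms: CN30, whose genotype the labels give as trans-nuclear and whose titles write NC30, and N2, the wild type laboratory strain. For either strain there were 3 libraries of day 0 and a library of each later day (6, 9 and 12), 12 in all. Worms of every group were kept at 20 °C on normal growth medium with E. coli OP50 as food. The labels do not say where CN30 took its nucleus and its mitochondria from, nor whether libraries of 1 group came from separate cultures, so p-values measure the spread between these libraries, which at day 0 may be technical. In the comparisons with day 0, days 6, 9 and 12 were taken as 1 class, with 1 library each in place of replicates. The spread of that class therefore also holds the differences between days.

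As background, neuropeptide precursors are cut from larger proteins, often amidated, packed into dense-core vesicles and released to act on G protein-coupled receptors. In the worm most flp genes and many nlp genes are expressed in neurons, while some nlp genes are expressed in the epidermis or the intestine, and a cluster of epidermal nlp genes encodes antimicrobial peptides induced by fungal infection and wounding. The insulin-like peptides act through 1 receptor, DAF-2, where some promote signalling and others oppose it in genetic tests, and that pathway sets dauer entry, stress resistance and lifespan.

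Values are FPKM, fragments scaled to gene length and to the mapped fragments of a library, as the authors deposited them. The depth of the libraries is not known and no counting interval is given. An exact 0 may be a missing estimate and is written as listed at 0. Because RNA came from whole worms, fewer cells of a type and less RNA per cell cannot be told apart. Summed mRNA values lay between 726252 and 779302 FPKM at days 6 to 12 and between 874694 and 911271 at day 0. The sums of epidermis, body-wall muscle and sperm markers were lower in every later library than in every day-0 library, and those of oocyte markers were higher, so all comparisons with day 0 also run across these shifts, whose part was not tested. N2 day-0 replicate 2 stood apart: its 14 epidermis markers summed to 3301 FPKM, against 7126 and 6635 in the other N2 day-0 libraries. Results that rest on it are given with and without it.

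In each library the nlp family held most of the peptide gene FPKM. The nlp genes summed to 714 to 834 FPKM in later CN30 against 1027 to 1149 at day 0, and to 634 to 1159 FPKM in later N2 and 1023 to 1426 in N2 at day 0. The flp genes summed to 161, 215 and 273 FPKM in CN30 at days 6, 9 and 12 and to 208 to 220 at day 0, and to 131 to 155 FPKM in later N2 and 183 to 191 in N2 at day 0. The ins genes summed to 156 to 169 FPKM in later CN30 against 102 to 116 at day 0, and to 135 to 151 FPKM in later N2 against 87.6 to 107 at day 0. The insulin sums thus did not overlap between later worms and day 0 in either strain, and at the later days those of CN30 lay above those of N2.

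Most of these genes were low. Of the 141 members, 21 stayed under 1 FPKM in all 12 libraries, 77 peaked between 1 and 10 FPKM, 35 between 10 and 100, and 8 reached 100 FPKM, all of them nlp genes. The most abundant flp gene, flp-28, had a mean of 24.4 FPKM over the 12 libraries and was followed by flp-5, flp-9 and flp-1, of which flp-1, expressed in the AVK interneurons and needed for normal movement, had 12.2, 13.7 and 16.9 FPKM in CN30 at days 6, 9 and 12 and 15.3 to 17.6 at day 0. Among the nlp genes the highest were nlp-24, whose precursor holds opioid-like YGGW peptides, nlp-40, the intestinal signal of the defecation rhythm, nlp-27, of the antimicrobial cluster, and nlp-36. Among the insulins they were ins-22, ins-7, ins-27 and ins-19. The order changed with age: nlp-24 led its family in all 6 day-0 libraries with 25.4 to 37.3% of its FPKM, and nlp-27 led it in 5 of the 6 later ones, with nlp-40 leading in CN30 at day 6. Genes entered a fit with 1 FPKM or more in at least 3 of its libraries, and 32 members entered none. A gene under 1 FPKM throughout 1 group thus entered only through the other group, where it was high. The p-value of such a gene gives little support of its own.

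**Figure D1:**
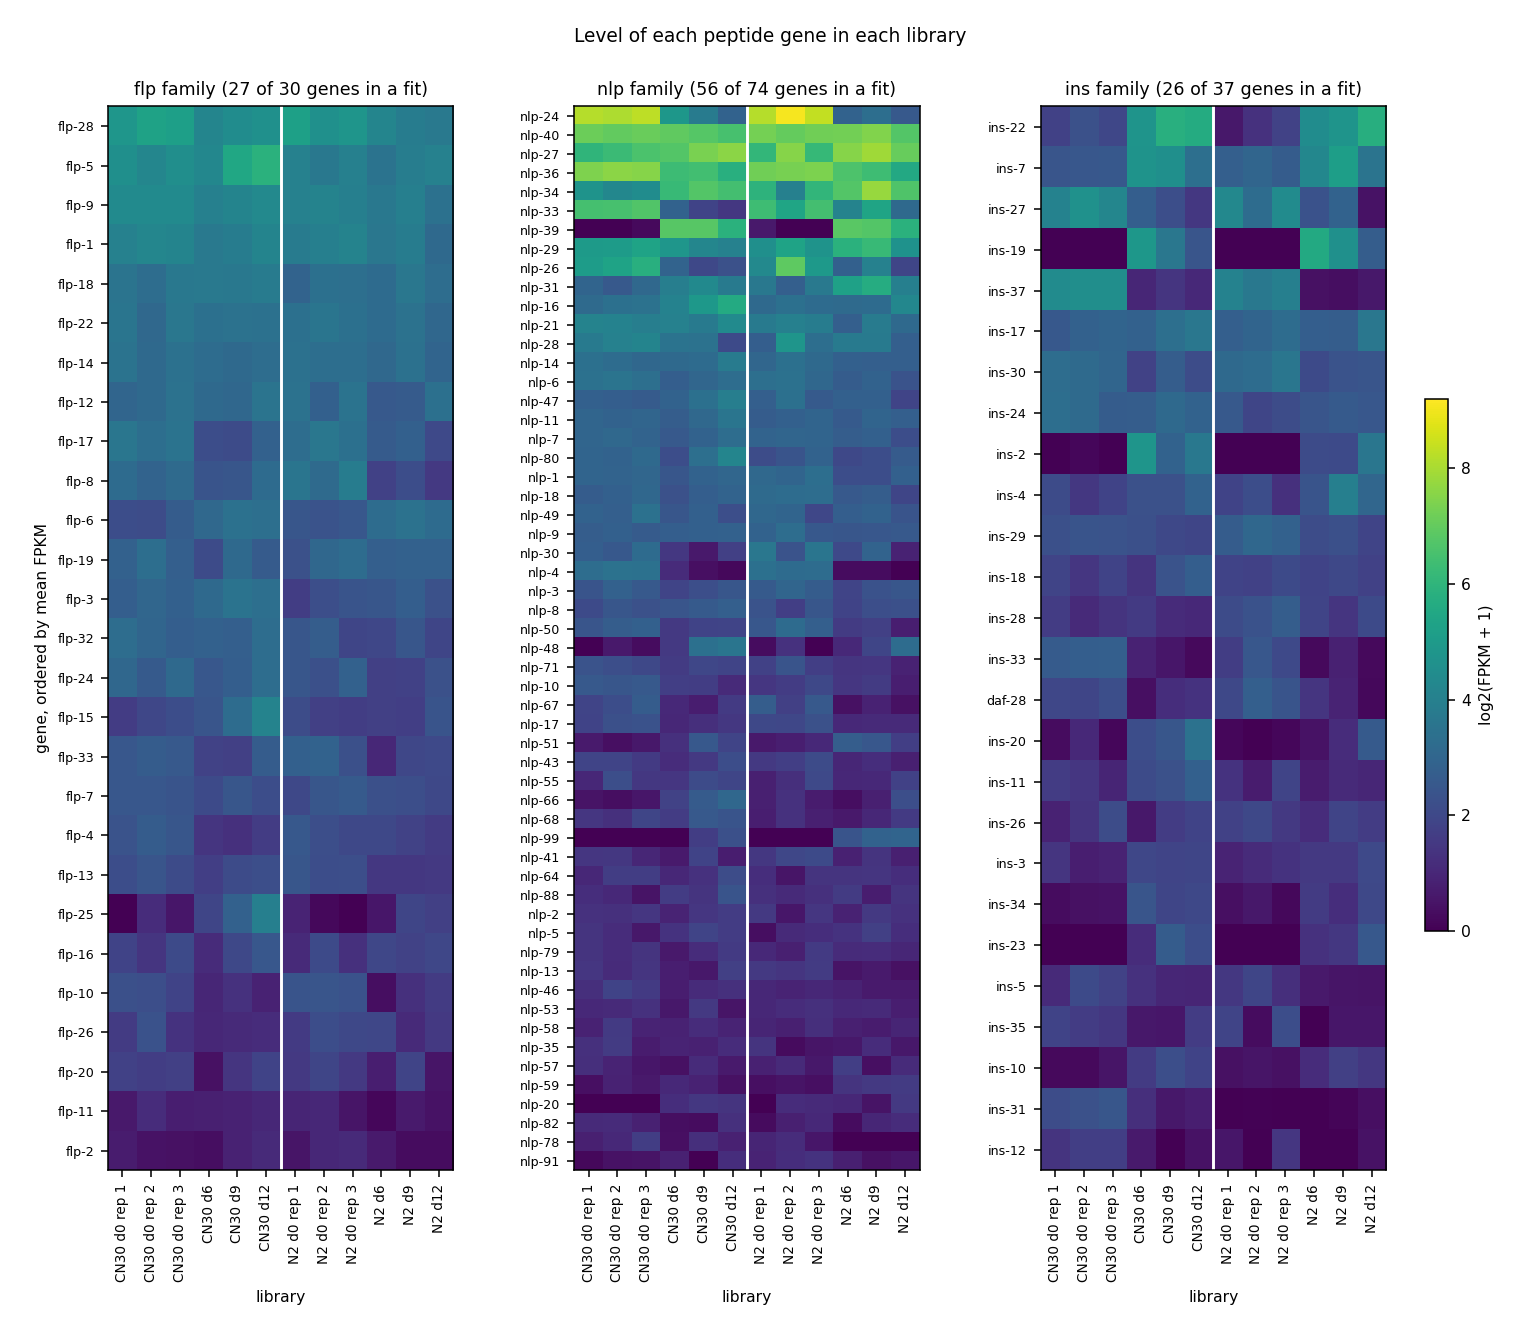
Level of each peptide gene that entered a fit, as log2(FPKM + 1), in rows ordered by mean FPKM within its family; columns are the libraries of CN30, left of the white line, and of N2, right of it, by day. Among the rows, nlp-24, nlp-39, nlp-33, ins-19, ins-22 and ins-37 change between day 0 and the later days in both strains.

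The comparison of days 6 to 12 with day 0 asked how these genes differ after the age that the labels call day 0. Differences were fitted on log2(FPKM + 1) with limma, with Benjamini-Hochberg adjustment over all genes tested and a threshold of 0.05 on the adjusted p. In CN30, 25 of the 102 members tested were higher later, 25 were lower and 52 did not pass. That is 49% of the members, where 80.9% of all genes tested passed in this comparison, 46% higher and 34.9% lower. In N2, 16 of 95 members were higher, 28 were lower and 51 did not pass, or 46.3% against 72.7% of all genes, 40.7% higher and 32% lower. The members' share lay under the background in both strains, and that difference was not tested. The members' median change was -0.15 in CN30, against 0.24 over all genes, and -0.21 in N2, against 0.14.

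The families differed in their counts. Of the flp genes, 4 of 25 rose and 5 fell in CN30, and 1 of 24 rose and 6 fell in N2. Of the nlp genes, 10 of 51 rose and 13 fell in CN30, and 6 of 49 rose and 15 fell in N2. Of the insulins, 11 of 26 rose and 7 fell in CN30, and 9 of 22 rose and 7 fell in N2, so 69.2% and 72.7% of the tested insulins passed. The split between rises and falls depends on how libraries are scaled. Quantile normalization gave 31 rises and 20 falls in CN30 and 32 rises and 11 falls in N2, and median-ratio rescaling gave 22 and 41 in CN30 and 13 and 37 in N2. The median of all genes shifted with it, to 0.30 in both strains under quantile normalization, and to -0.01 in CN30 and -0.09 in N2 under median-ratio rescaling, so small changes of a family have no settled sign.

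The fits of the strains share no library. Of 92 members tested in both strains, 14 were higher later in both, 17 were lower in both and 0 changed in opposite directions by limma. The shared rises are 63.6% of the 22 rises in CN30 and 100% of the 14 rises in N2 among these members, and the shared falls are 73.9% of the 23 falls in CN30 and 60.7% of the 28 falls in N2. Over all 13866 genes tested in both strains, the shared rises are 82.1% of the rises in CN30 and 94% of those in N2, the shared falls are 83% of the falls in CN30 and 89% of those in N2, and 16 genes changed in opposite directions. The insulins account for 9 of the shared rises and 5 of the shared falls, the nlp genes for 4 and 9, and the flp genes for 1 and 3.

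**Figure D2:**
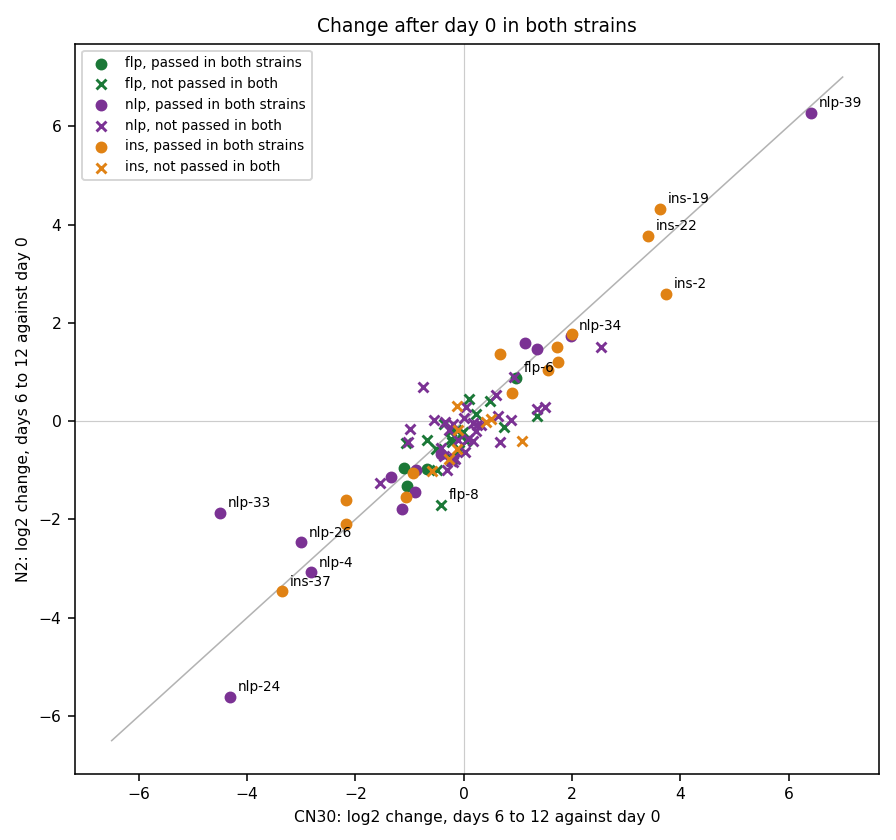
Change of each member from day 0 to days 6 to 12 as a log2 difference on the FPKM + 1 scale, in CN30 on the horizontal axis and in N2 on the vertical axis; filled points passed in both strains, crosses did not, colours mark the families and the grey diagonal marks equal change. The largest rise in both strains is that of nlp-39, at 6.42 in CN30 and 6.27 in N2, and no gene that passed in both strains lies in a quadrant of opposite signs. For genes listed at 0 at day 0, such as ins-19, the place depends on the pseudocount.

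Among the genes that fell in both strains were the epidermal peptide genes nlp-24 and nlp-33. The gene nlp-24 had 27.96, 13.3 and 6.51 FPKM in CN30 at days 6, 9 and 12, against 290.4, 264 and 313 at day 0, and 6.44, 8.93 and 4.91 FPKM in N2 at those days, against 291, 531 and 323 at day 0. Every later library was thus under every day-0 library, and CN30 at day 6 was the highest of the later ones. The change was -4.31 ± 0.45 in CN30 (SE, adjusted p = 0.000176) and -5.61 ± 0.28 in N2 (adjusted p = 1.75e-05). Both calls held under every alternative run, N2 without its day-0 replicate 2 included. The antimicrobial peptide gene nlp-33 had 6.35, 2.63 and 1.82 FPKM in later CN30, against 88.2, 91.1 and 103.7 at day 0, and 16.2, 40.5 and 7.85 FPKM in later N2, against 79.3, 41.9 and 87.3 at day 0. The groups did not overlap in either strain, though N2 at day 9 came close to N2 day-0 replicate 2. Its change was -4.49 ± 0.34 in CN30 (adjusted p = 4.75e-05) and -1.86 ± 0.58 in N2 (adjusted p = 0.0244).

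The 11 genes of the epidermal antimicrobial list, nlp-24 to nlp-34, did not move together. Of 9 tested, 3 rose, 5 fell and 1 did not pass in CN30, with a median of -0.99, and 2 rose, 3 fell and 4 did not pass in N2, with a median of -0.17. The falls shared by both strains were nlp-24, nlp-26 and nlp-33, and the shared rises were nlp-31 and nlp-34. The gene nlp-34 had 73.2, 106 and 85.6 FPKM in later CN30, against 25.3, 18.1 and 21.1 at day 0, a change of 1.99 ± 0.17 (adjusted p = 7.91e-05). In N2 it had 107, 220 and 100.5 FPKM later, against 60.8, 15.1 and 65.2 at day 0 (1.73 ± 0.60, adjusted p = 0.0369), and the low day-0 value is that of replicate 2, without which the change was 1.07 (adjusted p = 0.0388). This N2 call was lost with no filter (adjusted p = 0.0565), under median-ratio rescaling (0.0531) and under quantile normalization (0.0665). The reporter gene of this response in laboratory work, nlp-29, had 27.2, 17.9 and 15.7 FPKM in later CN30, against 31.2 to 39.6 at day 0, and passed as a fall (-0.76 ± 0.21, adjusted p = 0.0145). In N2, nlp-29 had 57.2, 73.0 and 24.9 FPKM later, against 23.1 to 39.8 at day 0, and did not pass (0.70 ± 0.41, adjusted p = 0.169).

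Of these genes nlp-34, nlp-31, nlp-30, nlp-29, nlp-28 and nlp-27, lie side by side within 10946 bases of chromosome V (3978825 to 3989770, build WBcel235). In CN30, nlp-34, nlp-31 and nlp-27 rose, nlp-30 and nlp-29 fell and nlp-28 did not pass, so neighbours in 1 cluster changed in both directions. The gene nlp-30 had 1.84, 0.55 and 2.35 FPKM in later CN30, against 4.80 to 8.41 at day 0 (-1.55 ± 0.33, adjusted p = 0.00456). In N2 day-0 replicate 2 this group stood off from the other day-0 libraries on both sides, with nlp-28 higher by 1.75, nlp-27 by 1.39 and nlp-24 by 0.79 on the log2 scale than the mean of the other N2 replicates, and nlp-34 at -1.99. Its nlp-26 value was 120 FPKM, against 19.2 and 29.8 in the other N2 replicates. Several N2 calls of the list rested on few libraries: nlp-33 was lost without day-0 replicate 1, day-0 replicate 3 or day 6 (adjusted p 0.066 to 0.0794), nlp-26 without day-0 replicate 2, day-0 replicate 3, day 6 or day 12 (0.0515 to 0.0806), nlp-31 without day-0 replicate 2, day 6 or day 9 (0.0709 to 0.0751), and nlp-34 without day 6, 9 or 12 (0.0517 to 0.112). Of the epidermis markers, 12 of 14 fell in CN30 and 6 of 13 in N2, while the listed nlp genes changed in both directions. The marker sums were 809, 194 and 106 FPKM in later CN30 and 202, 271 and 279 in later N2. The part of these markers in the changes of the nlp genes was not tested.

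Outside that list, nlp-39 had the largest rise of any member. It had 112, 111 and 57.5 FPKM in CN30 at days 6, 9 and 12, against 0, 0 and 0.17 at day 0, and 114, 105 and 57.4 FPKM in N2 at those days, against 0.55, 0 and 0 at day 0. Both strains thus gave almost the same values at each later day, with day 12 the lowest. The change was 6.42 ± 0.27 in CN30 (adjusted p = 1.5e-05) and 6.27 ± 0.32 in N2 (adjusted p = 1.84e-05). The gene entered both fits only through its later libraries, and the size of the change depends on the pseudocount. Of the other rises, nlp-48 had 1.90, 9.62 and 11 FPKM in later CN30, against 0 to 0.55 at day 0, and nlp-51 passed in both strains, with 1.44, 4.81 and 2.73 FPKM in later CN30 against 0.31 to 0.58 at day 0 and 5.64, 4.65 and 2.23 in later N2 against 0.56 to 1.10. The gene nlp-99 was listed at 0 in all 6 day-0 libraries and had 0, 2.17 and 3.69 FPKM in later CN30 and 4.21, 6.52 and 6.82 in later N2, and no fold is given. An assembled locus over nlp-99 went the other way, with 11.86 to 16.64 FPKM at day 0 and 5.11 to 6.14 later over both strains. The 0 of nlp-99 at day 0 may thus be a missing estimate, and its rise is uncertain.

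Falls among the other nlp genes included a low and an abundant gene. The low nlp-4 had 1.20, 0.31 and 0.15 FPKM in later CN30, against 8.67 to 9.95 at day 0 (-2.81 ± 0.25, adjusted p = 8.84e-05), and 0.23, 0.24 and 0 FPKM in later N2, against 8.23 to 9.52 (-3.08 ± 0.16, adjusted p = 1.9e-05). In N2 it entered the fit only through day 0. The abundant nlp-36 had 77.5, 84.0 and 55.2 FPKM in later CN30, against 169 to 194 at day 0, and 99.2, 80.4 and 45.9 FPKM in later N2, against 148 to 167, and fell in both (-1.34 ± 0.16 and -1.13 ± 0.27). For both genes every later library lay under every day-0 library. The intestinal nlp-40 changed little: it had 123, 109 and 89.9 FPKM in later CN30, against 127 to 141 at day 0, and 152, 173 and 105 FPKM in later N2, against 129.2 to 152. It passed in CN30 (-0.34 ± 0.12, adjusted p = 0.0365) and the call was lost without any of the libraries but CN30 day 6, with adjusted p between 0.0552 and 0.104 and a change of -0.22 without CN30 day 12, and it was also lost in the joint fit of all 12 libraries (adjusted p = 0.0869). Intestine markers, of which 8 of 13 fell in CN30 and 4 of 13 in N2, summed to 7494, 4415 and 2322 FPKM in CN30 at days 6, 9 and 12 and to 7678 to 7890 at day 0, and their part was not tested.

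The flp family had the lowest share of calls, 36% of the genes tested in CN30 and 29.2% in N2. Among falls common to both strains were flp-10 and flp-17, which encode ligands of the receptor EGL-6 that inhibits egg laying. The gene flp-17, expressed in the BAG sensory neurons, had 3.51, 3.33 and 6.17 FPKM in later CN30, against 11.1, 8.94 and 10.5 at day 0 (-1.10 ± 0.22, adjusted p = 0.00343). In N2 it had 5.22, 6.02 and 3.07 FPKM later, against 8.83, 11.6 and 9.49 at day 0 (-0.96 ± 0.25, adjusted p = 0.0117). The gene flp-10 had 0.98, 1.46 and 0.83 FPKM in later CN30, against 2.58 to 3.71 at day 0, and 0.27, 1.42 and 2.03 FPKM in later N2, against 4.02 to 4.39. No later library of either gene reached a day-0 library of its strain, and in N2 both calls were lost under quantile normalization, with adjusted p = 0.148 for flp-17 and 0.138 for flp-10. Their receptor gene egl-6 went the other way, with 5.42, 5.09 and 4.24 FPKM in later CN30, against 1.33 to 1.78 at day 0 (1.23 ± 0.14, adjusted p = 0.000214), and 4.69, 4.52 and 4.29 FPKM in later N2, against 0.97 to 1.07 (1.44 ± 0.13, adjusted p = 0.000116).

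The third flp fall in both strains was that of flp-28, the most abundant of the family, with 17.3, 21.3 and 23.7 FPKM in later CN30 against 27.4 to 38.5 at day 0, and 17.02, 13.4 and 12.1 in later N2 against 23.7 to 36.1. The change was -0.68 ± 0.17 in CN30 (adjusted p = 0.00869) and -0.96 ± 0.20 in N2 (adjusted p = 0.00435). The gene flp-6, a peptide gene of the AFD thermosensory neurons tied in genetic work to lifespan at warm temperature, rose in both strains. It had 7.57, 9.79 and 9.30 FPKM in later CN30, against 3.50, 3.41 and 5.42 at day 0 (0.97 ± 0.19, adjusted p = 0.0031), and 8.50, 9.97 and 8.37 FPKM in later N2, against 4.51, 4.05 and 4.64 (0.88 ± 0.15, adjusted p = 0.00204). The groups did not overlap in either strain, and both calls held under every alternative run. The gene flp-8 had 4.25, 4.47 and 8.30 FPKM in later CN30, against 6.55 to 8.22 at day 0, and 2.45, 3.55 and 1.90 FPKM in later N2, against 8.15 to 13.5. It passed in N2 (-1.71 ± 0.26, adjusted p = 0.000978) and not in CN30 (-0.41 ± 0.24, adjusted p = 0.159), and the difference between the strains' changes did not pass either (1.29 ± 0.37, adjusted p = 0.0832).

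The remaining flp calls were in 1 strain. The rises in CN30 were those of flp-3, flp-15 and flp-25, whose values are given with the strain comparison. The call of flp-3 (0.48 ± 0.14) was lost without day-0 replicate 1, day-0 replicate 3 or day 9 (adjusted p 0.0567 to 0.0732) and under median-ratio rescaling (0.23, adjusted p = 0.151), and that of flp-15 (1.35 ± 0.42) without day-0 replicate 1, day-0 replicate 2 or day 9 (0.0553 to 0.0701). In CN30, flp-4 had 1.68, 1.40 and 2.12 FPKM later, against 4.12 to 5.44 at day 0 (-1.06 ± 0.15, adjusted p = 0.000736), and flp-26 passed as a fall with a change of -0.67. The call of flp-26 was lost without day-0 replicate 1 or any later library, with adjusted p between 0.0677 and 0.101, and its change was -0.39 without day-0 replicate 2. It was also lost with no filter (adjusted p = 0.0629) and under quantile normalization, where the change was -0.17 (adjusted p = 0.557). In N2, flp-13, a peptide gene of the sleep-promoting ALA neuron, had 1.78 to 1.87 FPKM later, against 3.47 to 4.48 at day 0 (-0.78 ± 0.15, adjusted p = 0.00367). Also in N2, flp-33 had 1.03, 2.86 and 3.04 FPKM later, against 3.78 to 6.35 at day 0 (-0.995 ± 0.33, adjusted p = 0.0313), and this call was lost without day-0 replicate 1, day-0 replicate 2 or day 6 (0.0612 to 0.0958), with no filter (0.0525) and under quantile normalization, where the change was -0.32 (adjusted p = 0.446). Of 18 neuron markers tested in CN30, 5 rose and 7 fell, with a median of 0.01, and of 17 tested in N2, 3 rose and 9 fell, with a median of -0.67. Their summed level was 358, 422 and 506 FPKM in CN30 at days 6, 9 and 12 and 255 to 293 at day 0, and 234, 255 and 337 FPKM in N2 at those days and 256 to 282 at day 0. Their part in the changes of the flp genes was not tested.

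The insulin-like genes had the largest share of calls of the 3 families, 69.2% in CN30 against 80.9% of all genes and 72.7% in N2 against 72.7% of all genes. The gene ins-22 had 25.99, 55.1 and 49.3 FPKM in later CN30, against 2.44, 3.90 and 2.84 at day 0 (3.40 ± 0.30, adjusted p = 8.23e-05), and 21.4, 26.2 and 53.9 FPKM in later N2, against 0.50, 1.5 and 2.52 (3.77 ± 0.44, adjusted p = 0.000308). Its neighbour ins-23 was listed at 0 in all 6 day-0 libraries and had 1.25, 5.44 and 3.47 FPKM in later CN30 and 1.5, 1.78 and 4.74 in later N2. These genes and ins-21, which stayed under 1 FPKM, lie within 4946 bases of chromosome III (10023752 to 10028697). The gene ins-2 had 27.01, 6.46 and 11.95 FPKM in later CN30, against 0, 0.12 and 0 at day 0 (3.75 ± 0.45, adjusted p = 0.000328). It entered this fit only through its later libraries. In N2, ins-2 had 3.27, 3.15 and 11.1 FPKM later and was listed at 0 in all 3 day-0 libraries. No later library overlapped a day-0 library for any of these genes.

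The gene ins-19 was listed at 0 in all 6 day-0 libraries. It then had 27.9, 11.4 and 4.33 FPKM in CN30 at days 6, 9 and 12 and 47.6, 23.7 and 5.64 FPKM in N2 at those days, so it was highest at day 6 and lowest at day 12 in both strains. No assembled locus overlaps ins-19 (chromosome II, 3126037 to 3126441). Among the insulins that rose in both strains were also ins-10 and ins-34. The gene ins-10 had 2.0, 3.66 and 2.65 FPKM in later CN30, against 0.17 to 0.45 at day 0, and ins-34 had 4.32, 2.79 and 3.03 FPKM, against 0.23 to 0.36. Of their exon bases, 18.9% of ins-10 overlap vps-39 and 16.2% of ins-34 overlap nkcc-1 on the opposite strand, and the sources used here do not say whether strand was used in counting. The gene vps-39 had 75.6 to 80.5 FPKM in later CN30, against 25.1 to 28.8 at day 0, so it moved with ins-10, while nkcc-1 had 51.8 to 57.9 FPKM, against 60.0 to 66.4.

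The largest fall of an insulin was that of ins-37, with 0.99, 1.66 and 1.09 FPKM in later CN30, against 20.8, 22.4 and 22.4 at day 0 (-3.36 ± 0.15, adjusted p = 1.53e-05). In N2 it had 0.32, 0.27 and 0.51 FPKM later, against 15.9, 11.8 and 14.8 at day 0 (-3.47 ± 0.18, adjusted p = 1.89e-05), and both calls held under every alternative run. The N2 fit took in ins-37 only through day 0, so its p-value there gives little support of its own. An RNA gene on the same strand, F08G2.9, shares 17.9% of its exon bases. The gene ins-33 had 0.82, 0.48 and 0.19 FPKM in later CN30, against 5.24 to 5.81 at day 0 (-2.16 ± 0.17, adjusted p = 5.67e-05), and 0.19, 0.79 and 0.19 FPKM in later N2, against 2.15 to 4.67 (-1.61 ± 0.27, adjusted p = 0.00184, and 0.067 under quantile normalization). It entered both fits only through day 0. The gene ins-27 had 5.66, 3.64 and 1.84 FPKM in later CN30, against 16.1 to 24.2 at day 0 (-2.17 ± 0.33, adjusted p = 0.000931), and 4.02, 6.46 and 0.38 FPKM in later N2, against 18.8, 8.54 and 20.6 (-2.10 ± 0.67, adjusted p = 0.0266). The call of ins-27 in N2 was lost without day-0 replicate 1 or 3, with adjusted p of 0.0783 and 0.0853, and the change was -1.39 without N2 day 12. In CN30 ins-12 fell as well, with 0.59, 0 and 0.35 FPKM later, against 1.64 to 2.26 at day 0 (-1.23 ± 0.19, adjusted p = 0.00111), and it entered this fit only through day 0. In its cluster of 7 insulin genes on chromosome I, ins-27 and ins-30 fell in both strains and ins-29 fell in N2, while ins-24, ins-26 and ins-28 did not pass and ins-25 was too low to test.

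Insulins with known effects on DAF-2 were split. Of the 6 listed as agonists in genetic tests, ins-3, ins-4 and ins-7 rose and daf-28 fell in both strains, and ins-6 and ins-32 stayed under 1 FPKM in all 12 libraries and were not tested. The gene daf-28, which favours reproductive growth over dauer arrest, had 0.31, 1.30 and 1.55 FPKM in later CN30, against 2.91, 2.80 and 3.64 at day 0 (-1.06 ± 0.27, adjusted p = 0.0093), and 1.68, 0.87 and 0.14 FPKM in later N2, against 2.94, 5.92 and 4.23 (-1.55 ± 0.36, adjusted p = 0.00766). Under quantile normalization these calls were lost, with adjusted p of 0.147 in CN30 and 0.137 in N2. The gene ins-7, an insulin of the intestine and neurons whose loss extends lifespan, had 25.4, 22.7 and 9.16 FPKM in later CN30, against 4.43, 4.67 and 4.72 at day 0 (1.73 ± 0.36, adjusted p = 0.00407), and 18.3, 34.8 and 10.7 FPKM in later N2, against 5.92, 6.91 and 5.39 (1.51 ± 0.39, adjusted p = 0.0123). Every later library of ins-7 lay above every day-0 library, and every later library of daf-28 lay under every day-0 library. The rises of ins-3 and ins-4 were smaller and less stable. For ins-4 the change was 0.67 ± 0.24 in CN30 and 1.36 ± 0.44 in N2, and the calls were lost without CN30 day-0 replicate 2 or 3 or CN30 day 12 (adjusted p 0.0821 to 0.12) and without N2 day-0 replicate 1 or 3, day 9 or day 12 (0.0571 to 0.0965). Under median-ratio rescaling ins-4 had 0.44 in CN30 (adjusted p = 0.134) and missed the threshold in N2 (0.0589), and in CN30 it was also lost in the joint fit of all 12 libraries (0.131) and with no filter (0.0551). For ins-3 the change was 0.89 ± 0.19 in CN30 and 0.57 ± 0.20 in N2, where the call was lost without any library but day-0 replicate 3 (0.0546 to 0.144), and also with a pseudocount of 0.1 (0.0536), with no filter (0.0732) and under median-ratio rescaling (0.0895).

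Of the 3 listed antagonists, ins-17 and ins-18 did not pass in either strain and ins-1 was too low to test. The gene ins-17 had 6.31, 9.28 and 11.5 FPKM in later CN30, against 4.75 to 6.84 at day 0 (0.50 ± 0.23, adjusted p = 0.0828), and 5.76, 5.63 and 11.6 FPKM in later N2, against 5.88 to 8.61 (0.04 ± 0.30, adjusted p = 0.915). In both strains its day-12 library was the highest. The insulin genes ins-2, ins-3, ins-4, ins-5, ins-6 and ins-20, lie within 22798 bases of chromosome II (5988524 to 6011321). Of the 5 tested there in CN30, ins-2, ins-3, ins-4 and ins-20 rose and ins-5 did not pass, and of the 4 tested in N2, ins-2, ins-3 and ins-4 rose and ins-5 fell.

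**Figure D3:**
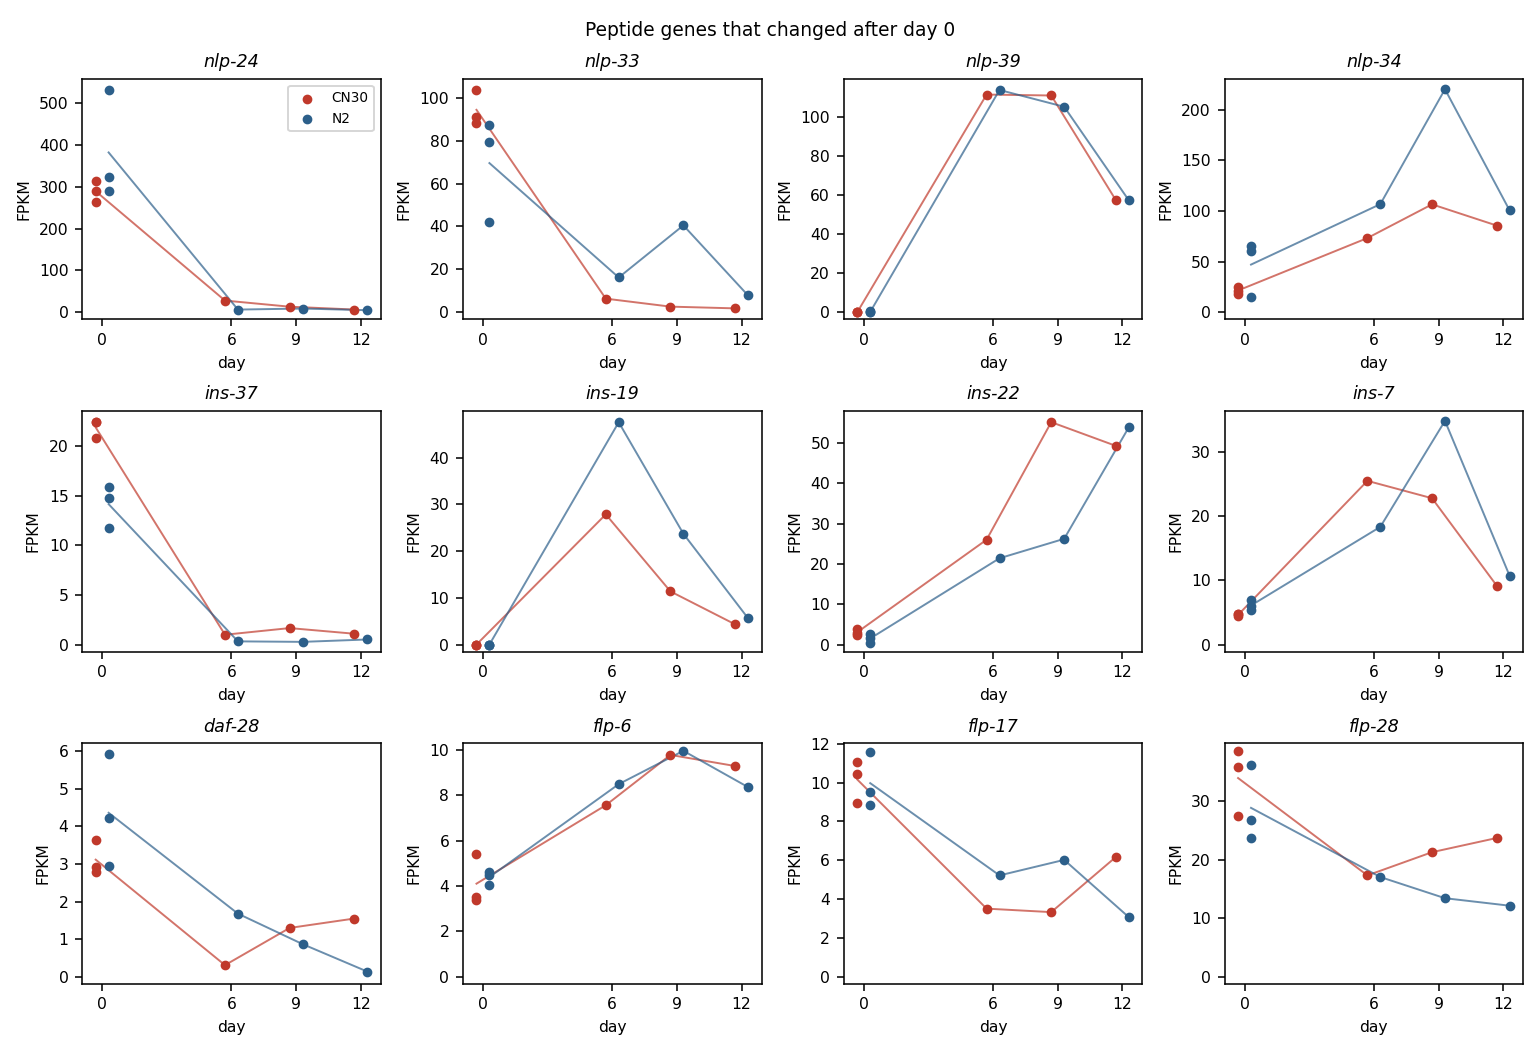
FPKM of 12 peptide genes by day in CN30 (red, shifted left) and N2 (blue, shifted right); each point is a library, with 3 libraries per strain at day 0 and 1 at each later day, and lines join the day-0 mean to the later values. The genes nlp-24, nlp-33 and ins-37 are high at day 0 and low later, nlp-39, ins-19, ins-22 and ins-7 the reverse, and flp-6, flp-17 and flp-28 change less.

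Among the later days, day 12 was set against day 6 over both strains, with 2 libraries against 2. Of 109 members tested, 1 was higher at day 12 and 4 were lower, or 4.59%, where 3.8% of all genes tested passed, 1.31% higher and 2.49% lower. Quantile normalization gave 2 higher and 3 lower. The fall of ins-19 was -2.65 ± 0.27 (adjusted p = 0.00142), and it was lost only when days 6 to 12 were fitted alone (adjusted p = 0.0806). The gene nlp-36 had 55.2 FPKM at day 12 and 77.5 at day 6 in CN30, and 45.9 and 99.2 in N2 (-0.79 ± 0.15, adjusted p = 0.0217), and it did not pass without N2 day 6, N2 day 12 or CN30 day 12 (0.0755 to 0.116). For ins-7 the change was -1.05 ± 0.23 (adjusted p = 0.0367), for nlp-39 -0.96 ± 0.22 (adjusted p = 0.0443) and for ins-20 1.73 ± 0.39 (adjusted p = 0.0393), with the same sign in both strains for each. These 3 calls were weak: with 1 library left out, adjusted p reached 0.188 for ins-7, 0.207 for nlp-39 (both without CN30 day 12) and 0.248 for ins-20 (without N2 day 6). Without CN30 day 6 the change of ins-7 was -0.65, and without N2 day 6 that of nlp-36 was -0.52. The count of 5 was 1 without CN30 day 12 or N2 day 12, 2 without CN30 day-0 replicate 1, CN30 day-0 replicate 2 or N2 day-0 replicate 3, and 3 without CN30 day-0 replicate 3, CN30 day 6 or N2 day-0 replicate 1. Intestine markers fell over these days too, with sums of 2322 FPKM at day 12 and 7494 at day 6 in CN30 and 2781 and 9836 in N2, and their part was not tested.

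The course over days 6, 9 and 12 also differed in its counts between the strains. In CN30, 43 of the 109 members, or 39.4%, had values that increased at each step, where 22% of all 15719 genes of that fit did, and in N2 it was 24 members, or 22%, against 26.9%. Of the 27 flp genes, 14 (51.9%) increased at each step in CN30 and 0 decreased at each step, against 6 (22.2%) and 3 (11.1%) in N2. Of all genes, 28.5% decreased at each step in CN30 and 17.3% in N2. With 1 library per day this is a description with no test. Examples in CN30 are flp-5, with 18.2, 43.1 and 57.3 FPKM at days 6, 9 and 12, and nlp-16, with 15.8, 29.2 and 48.3 FPKM. The neuron marker sum increased at each step in both strains.

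The comparison of CN30 with N2 at day 0 asked what sets the strains apart in the youngest worms sampled. Of 90 members tested, 1 was higher in CN30 and 0 were lower, or 1.11%, where 3.68% of all genes tested passed, 2.07% higher and 1.61% lower. Quantile normalization gave 3 higher and 1 lower, as did median-ratio rescaling. No flp or nlp gene passed in limma, with 4 of 24 flp genes and 7 of 46 nlp genes at an unadjusted p under 0.05. The gene that passed, ins-31, had 3.40, 3.81 and 4.54 FPKM in CN30 at day 0, against 0, 0.04 and 0 in N2. At days 6, 9 and 12 it had 1.36, 0.49 and 0.72 FPKM in CN30, against 0, 0.09 and 0.31 in N2, so CN30 was above N2 at each day. The day-0 difference was 2.27 ± 0.13 (adjusted p = 0.000824), with every CN30 library above every N2 library. The gene entered this fit only through its CN30 libraries, so the call could hardly have gone the other way. The size of the difference depends on the constant added before taking logs, since N2 was near 0, and was 5.16 with a pseudocount of 0.1.

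The gene ins-31 lies on chromosome II (3127041 to 3127831, build WBcel235), next to ins-19, and no assembled locus overlaps it. Of its neighbours within 10 kb, T10D4.7 had 0.35, 0.12 and 0.33 FPKM in CN30 at day 0, against 0, 0.05 and 0 in N2, so every CN30 library lay above every N2 library there too, at levels under 1 FPKM. The neighbour srh-71 overlapped between the strains at day 0 and had 1.05, 1.03 and 1.21 FPKM in later CN30, against 0.28, 0.64 and 0.41 in later N2. T10D4.6 had 7.60, 6.39 and 7.60 FPKM in CN30 at day 0, against 7.31, 6.94 and 6.71 in N2, chil-24 2.61 to 2.80 against 2.28 to 2.52, and ins-19 was listed at 0 in all 6 libraries. After day 0 the neighbours ins-19 and ins-31 went apart in CN30: ins-19 reached 27.9 FPKM at day 6, while ins-31 fell (-1.43 ± 0.20, adjusted p = 0.000617), with each later library under each day-0 library.

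The day-0 count depended on N2 day-0 replicate 2. Without it 12 of the 90 members passed, 8 higher and 4 lower in CN30, with ins-31 among them. Over all 14380 genes the counts rose as well, to 844 higher and 959 lower, from 297 and 232 with that library. Without N2 day-0 replicate 3 the member count was 3, all higher, and over all genes 329 were higher and 160 lower. Higher without replicate 2 were flp-3, flp-9, ins-31, ins-33, ins-37, nlp-10, nlp-28 and nlp-29, and lower were flp-8, ins-28, nlp-31 and nlp-34, chosen here by that fit and not by the naming rule. The largest of these apart from ins-31 was nlp-34, with 25.3, 18.1 and 21.1 FPKM in CN30, against 60.8 and 65.2 in N2 replicates 1 and 3 and 15.1 in N2 replicate 2 (-1.52 ± 0.13 without that library, adjusted p = 0.0011, and -0.86 ± 0.54 with it, adjusted p = 0.382).

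At days 6 to 12 the strains were compared in 3 pairs by day. Of 91 members tested, 10 were higher in CN30 and 0 were lower, or 11%, where 13% of all genes tested passed, 9.77% higher and 3.21% lower. Quantile normalization gave 1 higher and 1 lower. They were 5 of 25 flp genes (flp-3, flp-5, flp-15, flp-24 and flp-25), 3 of 46 nlp genes (nlp-16, nlp-66 and nlp-68) and 2 of 20 insulins (ins-11 and ins-20). The gene flp-5 had 18.2, 43.1 and 57.3 FPKM in CN30 at days 6, 9 and 12, against 10.3, 13.8 and 15.5 in N2 (1.39 ± 0.23, adjusted p = 0.0349). At day 0 it had 17.9 to 23.2 FPKM in CN30, against 12.0 to 15.5 in N2, so CN30 was above N2 at each day and the gap widened after day 6. The gene flp-15 had 4.40, 8.60 and 16.1 FPKM in later CN30, against 2.36, 2.27 and 4.20 in N2 (1.32 ± 0.26, adjusted p = 0.0436), from day-0 values of 2.08 to 3.49 in CN30 and 2.16 to 3.39 in N2.

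The gene flp-24, a peptide gene of the ALA neuron, had 4.6, 5.77 and 8.87 FPKM in later CN30, against 2.31, 2.41 and 3.83 in N2 (0.93 ± 0.17, adjusted p = 0.0391), and flp-3 had 7.92, 10.3 and 9.38 FPKM, against 4.54, 5.77 and 3.82 (0.85 ± 0.17, adjusted p = 0.0448). For both, every later CN30 library lay above every later N2 library. The gene flp-25 had 2.75, 6.20 and 14.5 FPKM in later CN30, against 0.47, 2.77 and 2.36 in N2 (1.496 ± 0.29, adjusted p = 0.0427). An assembled locus on the same strand overlaps flp-25, and it had 1.52, 3.45 and 5.87 FPKM in CN30 against 0.48, 0.53 and 1.28 in N2, so both rows differ in the same direction.

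Among the nlp genes, nlp-16 had 15.8, 29.2 and 48.3 FPKM in later CN30, against 7.99, 8.27 and 18.1 in N2 (1.32 ± 0.18, adjusted p = 0.0301), and 8.12 to 10.1 FPKM in CN30 against 7.89 to 9.47 in N2 at day 0. The strains thus overlapped at day 0 and CN30 was higher on each later day. The gene nlp-66 had 2.49, 5.20 and 7.33 FPKM in later CN30, against 0.28, 0.73 and 3.61 in N2 (1.38 ± 0.24, adjusted p = 0.0387), and nlp-68 had 2.08, 4.89 and 4.28 FPKM, against 0.53, 1.03 and 1.92 (1.13 ± 0.20, adjusted p = 0.0394). The insulin gene ins-11, known from the gut response to pathogens, had 3.33, 3.88 and 6.12 FPKM in later CN30, against 0.62, 1.13 and 0.97 in N2 (1.49 ± 0.20, adjusted p = 0.0296). The gene ins-20 had 3.46, 4.47 and 10 FPKM, against 0.36, 1.26 and 5.10 (1.28 ± 0.22, adjusted p = 0.0387), and increased over these days in both strains.

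These 10 calls were not stable. In limma the count was 0 without N2 day 6, CN30 day 6, N2 day 9 or CN30 day 9, with 21 or 23 members at an unadjusted p under 0.05. Over all 13015 genes, 10 were higher and 20 lower without N2 day 6, and 10 and 18 without CN30 day 6. Without day 9 of either strain 0 genes passed. It was 5 without N2 day 12 or CN30 day 12, where ins-11, ins-20 and nlp-66 stayed higher and nlp-27 and nlp-31 passed as lower in CN30. Each library left out takes its partner of the same day out of the estimate, so these fits rest on 2 pairs. The differences in these fits were 0.72 to 0.93 for flp-3 and 1.17 to 1.70 for flp-5. For all 10 genes CN30 was above N2 on every later day. Leaving out a library could thus not turn their sign, and the kept sign gives no support of its own. Neuron markers moved with this group: 6 of 15 were higher in CN30 and 0 lower, with a median of 0.65. Over all genes tested 9.77% were higher and 3.21% lower, with a median of 0.06. The neuron marker sums of 358, 422 and 506 FPKM in CN30 stood against 234, 255 and 337 in N2. Of 14 oocyte markers 0 were higher and 7 lower in CN30. Their part in the differences was not tested.

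**Figure D4:**
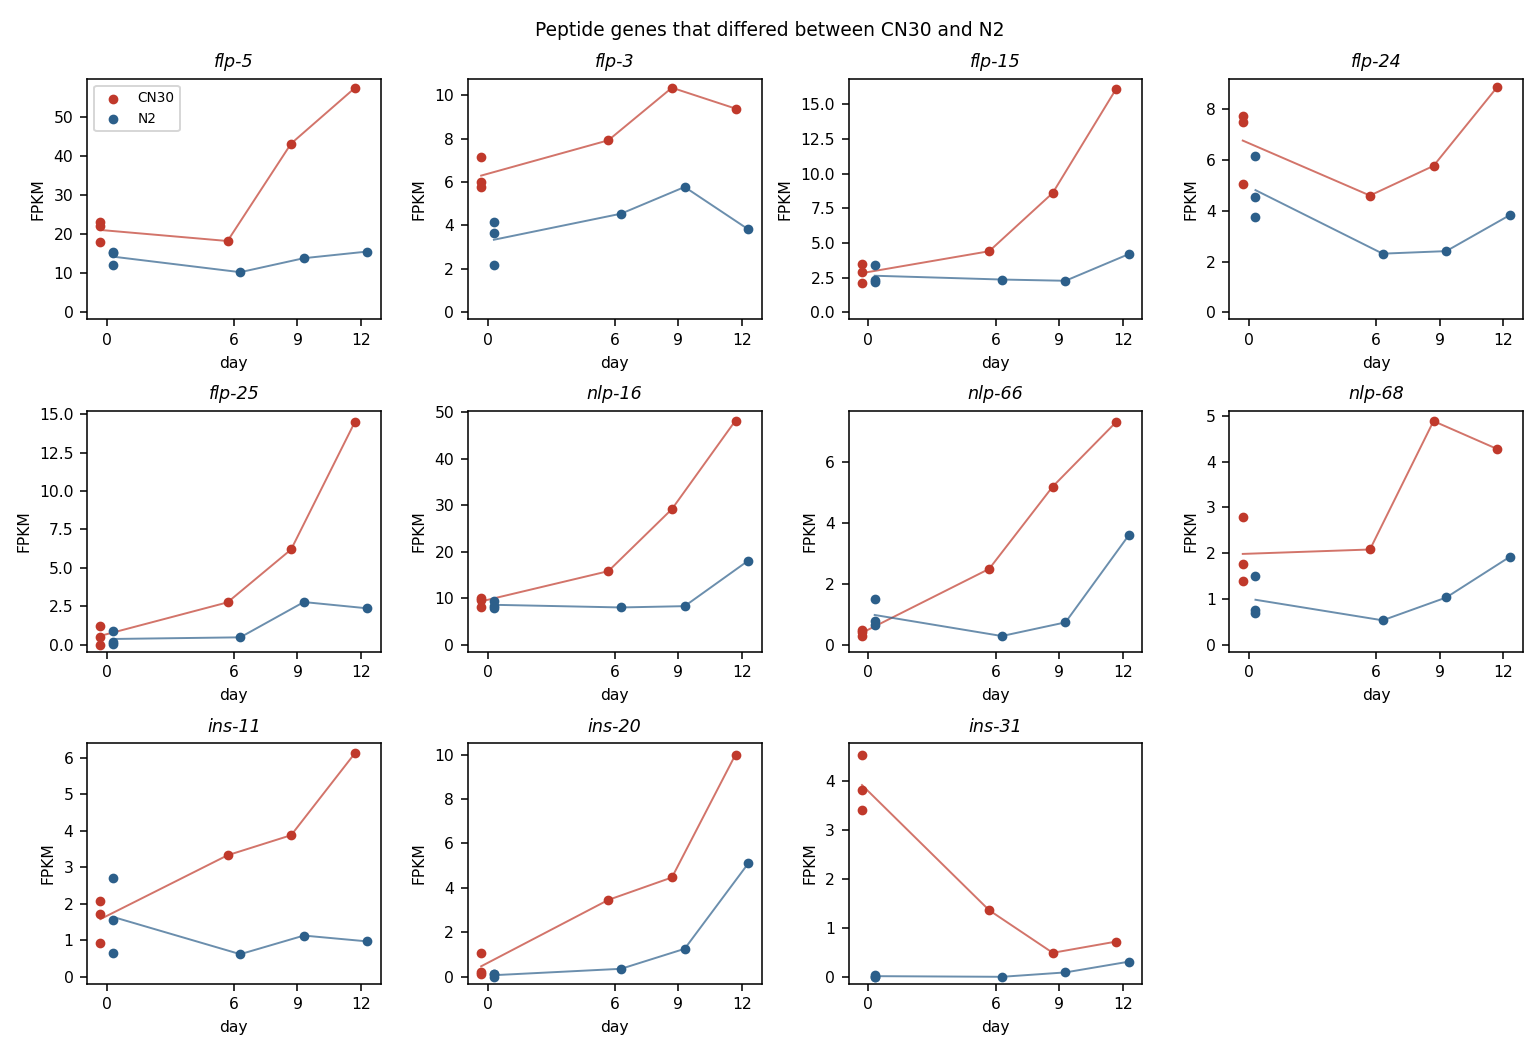
FPKM by day of the 10 members that were higher in CN30 at days 6 to 12 and of ins-31, which was higher in CN30 at day 0; CN30 is red and shifted left, N2 is blue and shifted right, each point is a library and lines join the day-0 mean to the later values. For all 10 genes CN30 at day 12 is above every N2 library, and flp-5, flp-15, flp-25 and nlp-16 climb from day 6 to day 12 in CN30.

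Whether the change after day 0 differed between the strains was tested over all 12 libraries as the product of strain and age class. Of 109 members, 0 had a more positive change in CN30 and 1 a more negative one, or 0.917%, where 2% of all genes tested passed, 1.15% more positive and 0.852% more negative. This was ins-31 (-1.58 ± 0.25, adjusted p = 0.0159), whose N2 level was 0 to 0.04 FPKM at day 0 and so could hardly fall. It entered this fit through its CN30 libraries, and the product cannot be told apart from the strain difference at day 0. In limma 17 members had an unadjusted p under 0.05, and of the next in order nlp-59 had -0.93 ± 0.25 (adjusted p = 0.0744), nlp-33 -2.63 ± 0.74 (adjusted p = 0.0807), flp-8 1.29 ± 0.37 (adjusted p = 0.0832) and ins-11 1.47 ± 0.43 (adjusted p = 0.0886). Without CN30 day 6 the count was 5 (ins-31, nlp-33, nlp-59, flp-5 and flp-15), without N2 day 12 it was 4 (ins-31, nlp-29, nlp-33 and nlp-66), without N2 day-0 replicate 2 it was 3 (ins-31, flp-8 and ins-11), and without N2 day-0 replicate 1 it was 0, with 15 members at an unadjusted p under 0.05. Over all 15719 genes, 181 were more positive and 134 more negative with all libraries. These counts were 460 and 357 without CN30 day 6, 1436 and 595 without N2 day 12, and 758 and 333 without N2 day-0 replicate 2. The genes flp-5, flp-15 and nlp-16, higher in later CN30, did not pass as a difference in the age change with all libraries (adjusted p = 0.286, 0.177 and 0.185).

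The genes that make, release and receive these peptides were counted from lists. Of 28 tested genes of peptide processing and dense-core vesicles, 9 were higher and 0 lower in later CN30 than in later N2, with a median of 0.39, where 9.77% of all genes tested were higher. Among them were sbt-1, the chaperone of the prohormone convertase EGL-3 (0.91 ± 0.11, adjusted p = 0.0294), unc-31, needed for dense-core vesicle release (1.05 ± 0.17, adjusted p = 0.0362), and hid-1, of vesicle formation, with 20.8, 19.5 and 20.3 FPKM in later CN30 against 10.9, 10.7 and 14.1 in later N2. These calls were not stable either: in limma 0 of all 13015 genes passed without CN30 day 9 or N2 day 9, with 2940 and 2947 at an unadjusted p under 0.05, and 2 of 21733 passed with no filter, where sbt-1, unc-31 and hid-1 did not. After day 0, 13 of 28 rose and 4 fell in CN30, and 9 rose and 9 fell in N2. Of all genes tested, 46% rose and 34.9% fell in CN30, and 40.7% rose and 32% fell in N2. The vesicle gene eipr-1 rose in both strains (0.95 ± 0.08 in CN30 and 1.27 ± 0.11 in N2). The convertase gene aex-5, which acts in the defecation rhythm as nlp-40 does, fell in both, to 3.67, 2.62 and 2.28 FPKM in later CN30, against 10.6 to 13.1 at day 0, and to 3.93, 4.27 and 3.34 FPKM in later N2, against 8.01 to 13.3.

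Most receptor genes were too low to test. Of those listed, 33 were tested in CN30, where 10 rose and 11 fell after day 0, and 22 in N2, where 4 rose and 10 fell. The shares over all genes are those given with the processing genes. The list was drawn by name prefix and holds the tyramine receptors (tyra) as well. Besides egl-6, the clearest was npr-5, a receptor for FLP peptides, which fell in both strains (-1.50 ± 0.11, adjusted p = 4.74e-05 in CN30 and -1.77 ± 0.15, adjusted p = 8.59e-05 in N2). In later CN30, 3 of 22 receptors were higher than in later N2 and 0 lower: aexr-1, with 2.23, 3.10 and 2.86 FPKM against 0.12, 0.23 and 0.99 (1.41 ± 0.21, adjusted p = 0.0319), dmsr-6 and npr-37. Both aexr-1 and dmsr-6 stayed under 1 FPKM in later N2 and entered this fit only through CN30, so these calls could hardly have gone the other way. The call of aexr-1 was lost without CN30 day 9 or N2 day 9 and with no filter as well.

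In the pathway below the insulin receptor, 13 of 18 tested genes rose and 3 fell in CN30 after day 0, with a median of 1.04, and 10 rose and 2 fell in N2, with a median of 0.85. Of all genes tested, 46% rose and 34.9% fell in CN30, with a median of 0.24. In N2 40.7% of all genes rose and 32% fell, with a median of 0.14. The difference from these shares was not tested. The phosphatase gene daf-18, which opposes the pathway, had 271, 232 and 245 FPKM in later CN30, against 75.6 to 84.8 at day 0, and 309, 323 and 290 FPKM in later N2, against 58.5 to 75.3. The kinase gene akt-1 had 144, 140 and 143 FPKM in later CN30, against 62.3 to 67.9 at day 0. In CN30 a gene that promotes the pathway and a gene that opposes it were thus both higher later. Of 14 oocyte and maternal markers all 14 rose in both strains, and their part was not tested. At day 0, sgk-1, a kinase gene of the pathway, was listed at 0 in each CN30 library, against 8.23, 3.52 and 7.98 FPKM in N2. The assembled locus over it had 20.2 to 21.3 FPKM in CN30, against 9.62 to 11.7 in N2, so the 0 may be a missing estimate.

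**Figure D5:**
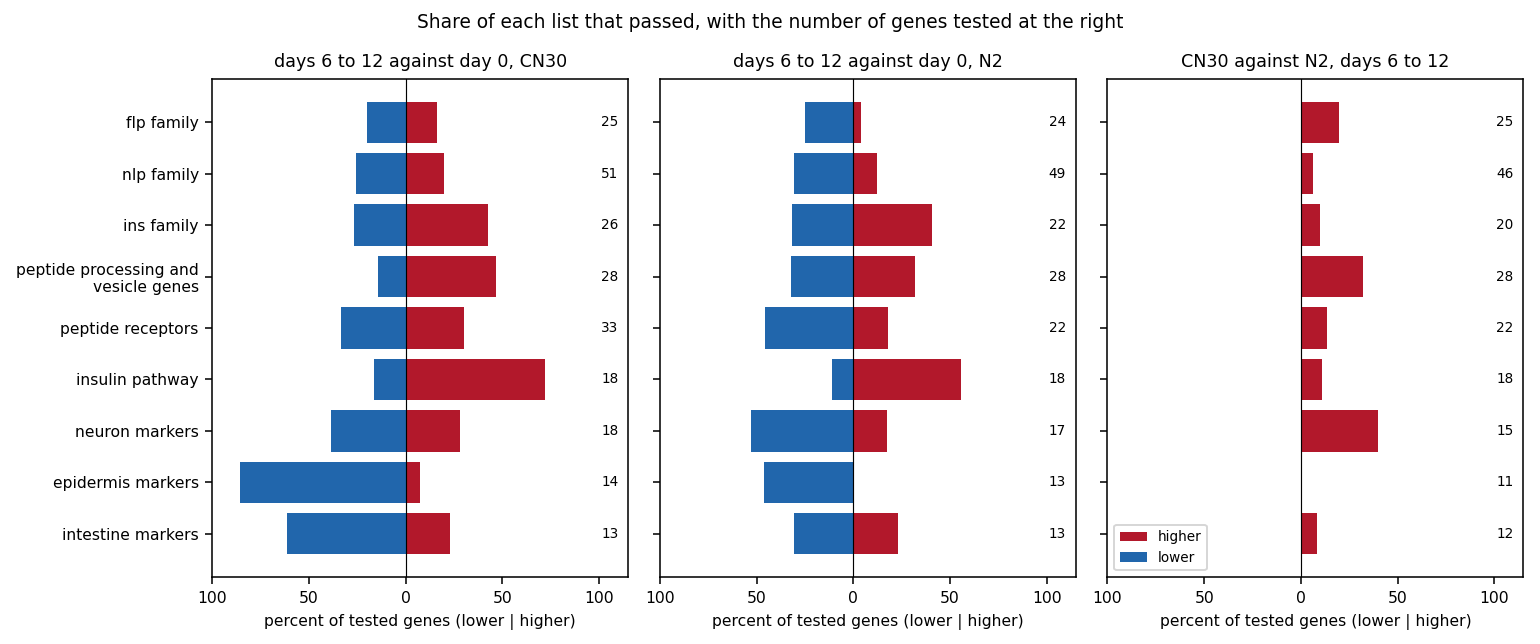
Percent of the tested genes of each list that passed as higher (red, to the right) or lower (blue, to the left) in 3 comparisons, with the number of genes tested at the right of each row; the upper 3 rows are the peptide gene families and the others are lists of related genes and the neuron, epidermis and intestine markers. In the right panel, CN30 against N2 at days 6 to 12, no row drawn holds a gene that passed as lower; the oocyte markers, of which 7 of 14 were lower, are not drawn.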

How the data were processed

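Whole-worm RNA was measured as FPKM, the unit of the gene table that the authors deposited. The submitters' processing notes name HISAT, StringTie and WBcel235, and versions and strand use are not given in the sources used here. A table with other units, per the file headers, gives lengths and positions of assembled transcripts and was used for overlaps. Of 19024 gene numbers, 18888 matched a symbol in the RefSeq table of the same build.

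On log2(FPKM + 1), linear models were fitted with limma 3.58.1 (eBayes with a trend) under R 4.3.3 over all mRNA genes with at least 1 FPKM in at least 3 libraries of the fit. P-values are two-sided and carry a Benjamini-Hochberg adjustment across every gene of the fit. The strain comparison at days 6 to 12 had day as a factor, and day 12 against day 6 used all 12 libraries with strain as a term. With 3 libraries against 3, the smallest p of an exact permutation test is 0.1, so a call depends on limma's pooled spread. The pipeline was tested on simulated data. Figures were drawn with Matplotlib 3.10.9 in Python 3.11.15.

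Named are, per family, the 4 members with the highest mean FPKM and, per comparison, up to 5 rises and 5 falls with the largest change among members that passed whose higher group reached 2 FPKM and whose groups did not overlap (for pairs by day, the same sign in all 3), the listed insulin agonists and antagonists, and up to 4 genes of each pathway list by smallest p. Other genes were named after their values were seen. The members, lists and tests were chosen with earlier results of these data known. The alternatives tried were quantile normalization, rescaling by median ratios, no filter on low values, 0.1 as the pseudocount, robust shrinkage, a replicate block, a fit with no day term, a joint fit, days 6 to 12 only, and each library left out.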

Additional observations from a re-analysis of the deposited data

Results flagged for a closer look

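The insulin gene ins-31 stood out because CN30 and N2 differed in how it changed after day 0 by a direct test, with a product of strain and age class of -1.58 on the log2 scale (adjusted p = 0.0159). It had 1.36, 0.49 and 0.72 FPKM in later CN30, against 3.40 to 4.54 at day 0, and 0 to 0.31 FPKM in later N2, against 0 to 0.04 at day 0. Its N2 level could thus hardly fall, it entered the fit through its CN30 libraries, and the product cannot be told apart from the strain difference at day 0. The adjusted p lay between 0.00311 and 0.0698 over its alternatives, and it missed the threshold with a pseudocount of 0.1 (0.0698) and without N2 day-0 replicate 1 (0.0538).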

How the results depend on the processing

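Counts over all genes moved with the library left out, as given above for both strain comparisons. Counts of members that passed are given here where they moved by over 1.5 times. For CN30 against N2 at day 0 the count was 1, against 2 with no filter, 4 under median-ratio rescaling, 4 under quantile normalization, and 1 to 12 with each library left out. At days 6 to 12 it was 10, against 0 with no filter (33 at an unadjusted p under 0.05 in limma), 0 with no day term (22) and 2 under quantile normalization (1 higher, 1 lower), and 0 to 5 with each library left out. For the product of strain and age class it was 1, against 0 with a pseudocount of 0.1 (15 unadjusted) and 2 under quantile normalization, and 0 to 5 with each library left out. For day 12 against day 6 it was 5, against 0 with days 6 to 12 alone (27 unadjusted), and 1 to 7 with each library left out. For days 6 to 12 against day 0 the counts stayed within 44 to 58 in CN30 and 35 to 44 in N2 with each library left out. With the replicate block at day 0 the count was 1, and ins-31 kept its call (adjusted p = 0.0242). Same-numbered day-0 libraries had correlations of their deviations of 0.059, -0.035 and -0.017, and not every library correlated best with its own number. With 3 libraries per strain this cannot settle whether the numbers pair the samples, which the labels do not say. Of 87 named gene results, 51 kept their call under every alternative, and of the 1079 refits 885 kept the call, 194 lost it with the same sign, and 0 turned. Genes named for a rise or fall between groups had groups that did not overlap, or pairs of the same sign. Leaving out a library could thus hardly turn them, and the 0 gives little support. The cause of these moves was not tested. Depth is unknown, and 32 members were too low for any fit, so changes at their level were not detectable here.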

Other observations

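Of the 32 members too low for any fit the highest was nlp-23, with 0.87, 3.07 and 5.96 FPKM in CN30 at days 6, 9 and 12 and 0.14 to 0.16 at day 0, while in N2 it was listed at 0 at days 6, 9 and 12 and had 0 to 0.74 FPKM at day 0. Its neighbours nlp-45 and nlp-22, in the same cluster on the X chromosome, stayed under 1 FPKM in all libraries. Among low genes that were tested, nlp-78 was listed at 0 in the later N2 libraries and had 0.31, 1.37 and 0.78 FPKM in later CN30. The gene nlp-20 was listed at 0 in all 3 CN30 libraries at day 0 and had 1.31, 1.79 and 1.63 FPKM in later CN30, and 1.05, 0.39 and 1.86 FPKM in later N2 against 0, 1.25 and 1.16 at day 0. An assembled locus overlaps nlp-20 on the same strand.

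Other secreted peptides outside the 3 families include the caenacins (cnc), some of which are antimicrobial, and in CN30 they changed in both directions. The gene cnc-2 had 37.8, 33.02 and 38.4 FPKM in later CN30, against 0.24 to 1.15 at day 0 (4.52 ± 0.21, adjusted p = 1.6e-05), and 116, 118 and 29.9 FPKM in later N2, against 1.54 to 4.15 (4.44 ± 0.57, adjusted p = 0.00049). The gene cnc-6 was listed at 0 in all 6 day-0 libraries and had 6.12, 4.26 and 3.46 FPKM in later CN30 and 6.33, 10.6 and 2.84 in later N2. The gene cnc-8 fell in CN30, with 22.7, 19.4 and 18.01 FPKM later against 57.8 to 59.5 at day 0 (-1.50 ± 0.10, adjusted p = 2.96e-05). Of 13 tested genes of that list, 5 rose and 1 fell in CN30, and 4 rose and 2 fell in N2. The shares over all genes were 46% higher and 34.9% lower in CN30, and 40.7% and 32% in N2.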
